A study of Mus musculus with 12 samples.

Results

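Peroxisomal fatty acid oxidation was followed through 9 genes: Ehhadh, Acaa1a, Acaa1b and Hsd17b4, which encode enzymes of the chain-shortening steps, Abcd2, Abcd3 and Crot, which encode carriers of the substrates and products, Cat, which encodes catalase, and Pex11a, which encodes a protein of peroxisome division. The members were the intervals of a table of H3K27ac signal whose gene name, as assigned by the authors, was 1 of these 9 symbols. 7 of the 9 genes had an interval under their symbol, with 35 intervals in all of the 126464 in the table, which carried 22264 symbols. Ehhadh and Pex11a had none, and the intervals nearest to their starts are described by position at the end.

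H3K27ac is histone H3 acetylated at lysine 27, a mark of active promoters and enhancers. It was measured by chromatin immunoprecipitation and sequencing (ChIP-seq) in 4T1 cells, an established mouse mammary carcinoma line of wild-type genotype by its label, kept in culture. Cells were kept for 48 h in 1 of 6 treatments: vehicle, acetate, etomoxir, etomoxir + acetate, etomoxir + SB204990, or both inhibitors + acetate. Acetate was used at 5 mM and each inhibitor at 50 µM. Each treatment was represented by 2 libraries, which makes 12. All libraries received human chromatin (7.5%) as a spike-in, and a value is the number of reads in an interval multiplied by a spike-in factor of the library, called scaled reads here. The labels join the libraries across treatments by a pair of suffixes of unstated meaning, called set 1 and set 2, and no label says whether libraries of a treatment came from separate cultures, so p-values measure the spread between these libraries, which may be technical.

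Peroxisomes shorten very long and branched fatty acids that mitochondria do not take directly. ABC transporters such as ABCD2 and ABCD3 bring the acyl-CoA in, an oxidase starts each cycle and produces hydrogen peroxide, a bifunctional enzyme (EHHADH or HSD17B4) carries out the middle steps, and a thiolase (ACAA1A or ACAA1B) releases acetyl-CoA. CROT turns the shortened chains into carnitine esters that leave for the mitochondrion, and catalase breaks down the peroxide. In rodent liver many of these genes are textbook targets of PPARα, a nuclear receptor that binds fatty acids and pairs with RXR at a DNA element called DR1, made of repeats of AGGTCA with a single base between them. Etomoxir blocks carnitine palmitoyltransferase, the entry step of long-chain fatty acids into mitochondria, SB204990 blocks ATP citrate lyase, a cytoplasmic source of acetyl-CoA, and acetate is another source of acetyl-CoA.

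The promoters of 4 members are shown because they differed most in base composition and in whether they lay in an interval. Each is 300 bases from RefSeq (GRCm38.p6), 250 before to 50 after the start, read 5′ to 3′ on the strand of the gene, with the stretch closest to the DR1 element (AGGTCANAGGTCA, searched on both strands, overlaps allowed) in capitals.
Abcd3 (chr3:121815253-121815552, minus strand): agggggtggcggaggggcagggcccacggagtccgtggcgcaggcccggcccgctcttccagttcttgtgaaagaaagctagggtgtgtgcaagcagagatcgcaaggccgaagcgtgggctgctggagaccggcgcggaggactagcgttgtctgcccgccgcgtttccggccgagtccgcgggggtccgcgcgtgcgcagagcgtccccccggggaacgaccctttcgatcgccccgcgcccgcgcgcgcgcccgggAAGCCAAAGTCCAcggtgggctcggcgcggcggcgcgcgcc
Crot (chr5:8997097-8997396, minus strand): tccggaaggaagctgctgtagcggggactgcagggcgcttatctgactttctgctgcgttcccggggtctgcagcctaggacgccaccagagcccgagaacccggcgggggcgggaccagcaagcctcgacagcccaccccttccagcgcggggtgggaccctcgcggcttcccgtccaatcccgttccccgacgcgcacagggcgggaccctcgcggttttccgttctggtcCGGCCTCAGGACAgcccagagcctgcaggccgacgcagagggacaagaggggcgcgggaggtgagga
Cat (chr2:103485104-103485403, minus strand): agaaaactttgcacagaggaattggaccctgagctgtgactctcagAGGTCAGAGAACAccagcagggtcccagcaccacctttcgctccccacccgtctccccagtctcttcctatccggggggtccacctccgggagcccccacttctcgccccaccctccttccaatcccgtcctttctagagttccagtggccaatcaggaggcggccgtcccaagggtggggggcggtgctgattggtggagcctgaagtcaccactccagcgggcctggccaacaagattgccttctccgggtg
Acaa1b (chr9:119157044-119157343, minus strand): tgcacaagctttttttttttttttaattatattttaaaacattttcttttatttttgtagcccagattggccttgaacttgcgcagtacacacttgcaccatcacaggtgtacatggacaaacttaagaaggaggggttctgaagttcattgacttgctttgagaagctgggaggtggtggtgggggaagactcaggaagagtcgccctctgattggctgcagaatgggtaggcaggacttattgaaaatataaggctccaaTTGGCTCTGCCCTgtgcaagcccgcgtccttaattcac
The ratio of observed to random CpG was 1.12 in the Abcd3 promoter and 0.80 in the Crot promoter, compared with 0.39 for Cat and 0.28 for Acaa1b. The first 3 promoters lay in an H3K27ac interval and that of Acaa1b did not. Of the 32851 mouse promoters of the same length, 46.6% touched an interval, namely 81.8% of the 11765 with a CpG ratio of at least 0.6 and 27% of the 21086 under it.

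The stretch in capitals of the Cat promoter, AGGTCAGAGAACA, began 204 bases before the start and differed from the 12 fixed bases of the element at 2, a match at least as close as that found in 3.86% of all promoters. It contains a whole AGGTCA, which 16.3% of promoters hold at least once. The best stretches of Abcd3, Crot and Acaa1b differed at 4 bases, and 79.8% of promoters hold one as close. These matches describe letters in a short window and are no sign of binding. RefSeq promoters were matched for 7 of the 9 members (8 promoters), and those of Acaa1a, Pex11a and both Abcd3 starts also touched an interval, whereas the promoter of Ehhadh did not.

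The members carried the mark in different places relative to their genes. Abcd3, which encodes the main ABC transporter of the peroxisomal membrane, had 5 intervals, and 89.5% of its scaled reads lay in a single interval of 3286 bp that holds its start (chr3:121813130-121816415, mm10). At 75.9 scaled reads per kb this was the densest of the 35 intervals. Crot, the carnitine octanoyltransferase, likewise had 90.2% of its 143 scaled reads in the interval at its start (chr5:8995183-8998410, 40.1 per kb). Acaa1a, 1 of the thiolases, had 1 interval of 16612 bp (chr9:119332692-119349303), which holds its start and also that of Myd88 and touches Slc22a14, so its value cannot be ascribed to Acaa1a alone.

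For Cat and Hsd17b4 most of the signal lay in a neighbouring gene. Cat had 15 intervals with 1144 scaled reads, the largest sum among the members, but 61.2% of it was in 4 intervals within Abtb2. The largest of them (chr2:103564924-103576155) holds the Abtb2 start and made up 42.2%. The interval at the start of Cat itself (chr2:103482399-103485844, 33.9 scaled reads per kb) made up 10.2%, and 6 intervals further inside the gene made up 23.6%. Hsd17b4, the bifunctional enzyme for branched chains and bile acid precursors, had 7 intervals, of which 6 lay in Tnfaip8 and held 83.2% of its 194 scaled reads. The remaining interval (chr18:50128238-50129215, 33.3 per kb) began 37 bp inside the annotated start of Hsd17b4.

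Abcd2 and Acaa1b had no interval at their start. The 3 intervals of Abcd2 touched no coding gene and lay beyond its 3′ end, at least 87749 bp from its start, and the largest (chr15:91090747-91093869) held 82.3% of 72.8 scaled reads. The only interval of Acaa1b, the thiolase gene near-identical with Acaa1a and on the same chromosome, was 571 bp long and lay at its 3′ end, 8184 bp from the GENCODE start (chr9:119148339-119148909). It averaged 12.4 scaled reads, from 8 to 28 reads per library. Reads of the thiolase pair could be split between the copies, so the Acaa1b value is uncertain.

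**Figure D1:**
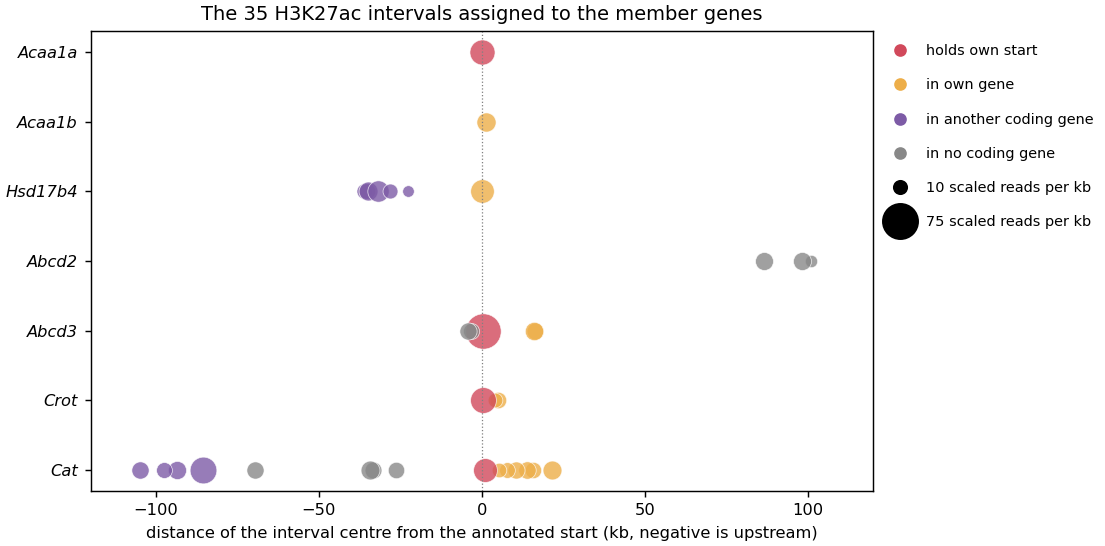
Each circle is 1 of the 35 intervals, placed by the distance of its centre from the annotated start of its gene (kb, as given in the table, negative values upstream), with the area growing with the mean scaled reads per kb over 12 libraries and the color giving the overlap with coding genes. The 4 intervals that hold the own start had a median of 38.9 scaled reads per kb, compared with 16.9 for the 12 others in the own gene, 16.5 for the 10 in another gene and 17.3 for the 9 in no coding gene.

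Per kb of interval, which allows genes to be ordered, Abcd3 was highest at 55.5 scaled reads per kb, above 96.0% of the 19458 symbols tested. It was followed by Acaa1a with 37.8, Crot with 33.8, Cat with 24.7, Hsd17b4 with 24.1, Acaa1b with 21.8 and Abcd2 with 16.8 scaled reads per kb. The median over all symbols tested was 23.0, so Abcd2 and Acaa1b lay under it and Cat and Hsd17b4 lay just above it. The order of the sums themselves was set in part by covered length, which ran from 571 bp for Acaa1b to 46300 bp for Cat.

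Across the 12 libraries, recovered reads in intervals ranged from 7179165 to 16676442 and the spike-in factors from 0.398 to 1. The etomoxir + SB204990 library of set 2 had the fewest reads and stood apart, with a mean correlation across intervals of 0.915 with the other libraries, compared with 0.949 to 0.958 for the rest, and 2.77% of its reads in the quartile of intervals with the lowest values, where the rest had 0.990 to 1.41%. An interval lay at the start of 7 of 7 epithelial markers, with 33.2 to 54.9 scaled reads per kb, and at the start of 0 of 4 leukocyte, 0 of 3 hepatocyte and 0 of 3 adipocyte markers. Krt8 and Krt18 shared the same interval. An interval also lay at 1 of 4 fibroblast markers (Pdgfra, 43.4 scaled reads per kb) and 2 of 3 endothelial markers (Pecam1 with 12.8 and Cdh5 with 26.9).

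To see how the members followed acetate supply, each of the 3 conditions with acetate was compared with its counterpart without it. All 7 members rose with acetate when the 3 comparisons were averaged on the spike-in scale, by 1.52-fold for Abcd3 to 2.23-fold for Acaa1b, but none was called, and Abcd3 turned, when the shift shared by all intervals was removed. Multiplying each library's share of reads by its factor, which takes out sequencing depth, kept the rises but also left none called. On the spike-in scale the increase was seen in 6 of 6 same-set pairs of libraries for each member. How many of all symbols did the same, or showed no overlap as described below for single members, was not counted. In this average 17167 of 19458 symbols were called higher, so neither is read as a trait of the members. Most genes in the table rose alike, with a median log2 difference of 0.63 over all symbols tested and 0.68 over the members.

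The sum of Abcd3 was 206 and 209 scaled reads with vehicle (sets 1 and 2), 305 and 296 with acetate, 265 and 261 with etomoxir, 413 and 417 with etomoxir + acetate, 180 and 200 with etomoxir + SB204990, and 257 and 335 with etomoxir + SB204990 + acetate. In each background both acetate libraries lay above both libraries without it. The average acetate difference of Abcd3 was 0.61 on the log2 scale (SE 0.12, limma adjusted p = 1.1e-04).

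Crot had 103 and 108 scaled reads with vehicle, 156 and 143 with acetate, 131 and 125 with etomoxir, 229 and 204 with etomoxir + acetate, 91.6 and 106 with etomoxir + SB204990, and 137 and 186 with the same inhibitors + acetate. The groups with and without acetate again did not overlap in any background. The average difference was 0.65 (SE 0.14, limma adjusted p = 2.8e-04), and that of its start interval alone was 0.64 (SE 0.14, limma adjusted p = 3.6e-05).

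Acaa1a went from 422 and 532 scaled reads with vehicle to 668 and 700 with acetate, from 534 and 537 with etomoxir to 1005 and 924 with etomoxir + acetate, and from 338 and 461 with etomoxir + SB204990 to 613 and 804 with acetate added. There was no overlap in any of the 3 backgrounds, and the average difference was 0.73 (SE 0.12, limma adjusted p = 1.9e-05). Acaa1b, its copy, went from 5.61 and 6.34 to 9.66 and 18.1, from 8 and 5.73 to 28.0 and 18.2, and from 6.37 and 11 to 12.9 and 19.1 in the same order. Acaa1b had the largest difference among the members, at 1.16 (SE 0.35, limma adjusted p = 0.0041), and also the largest error and the fewest reads.

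Hsd17b4 had 132 and 160 scaled reads with vehicle and 244 and 198 with acetate, 159 and 175 with etomoxir and 296 and 283 with etomoxir + acetate, and 99.6 and 166 with etomoxir + SB204990 and 173 and 239 with acetate added. The groups did not overlap, and within the sets the log2 differences in the last background were 0.79 and 0.53, the second against the etomoxir + SB204990 library that stood apart. The average difference was 0.68 (SE 0.15, limma adjusted p = 2.4e-04). The interval beside its own start gave 0.85 (SE 0.23, limma adjusted p = 6.3e-04), and the largest interval, in Tnfaip8, gave 0.60 (SE 0.14, limma adjusted p = 9.6e-05).

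Cat, the peroxide-removing enzyme, had 817 and 959 scaled reads with vehicle and 1267 and 1235 with acetate, 973 and 946 with etomoxir and 1725 and 1610 with etomoxir + acetate, and 653 and 992 with etomoxir + SB204990 and 1124 and 1424 with acetate added. The average difference was 0.65 (SE 0.11, limma adjusted p = 3.4e-05). Its start interval rose by 0.54 (SE 0.15, limma adjusted p = 6.6e-04) and the Abtb2 start interval by 0.65 (SE 0.11, limma adjusted p = 7.4e-08), both on the log2 scale.

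Abcd2, the transporter of very long and polyunsaturated chains, had 63.1 and 60.2 scaled reads with vehicle and 88.7 and 72.4 with acetate, 53.1 and 56.7 with etomoxir and 104 and 112 with etomoxir + acetate, and 43.4 and 56.0 with etomoxir + SB204990 and 66 and 97.1 with acetate added. Its average difference was 0.68 (SE 0.18, limma adjusted p = 0.0013). These values come from intergenic intervals far from the gene.

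**Figure D2:**
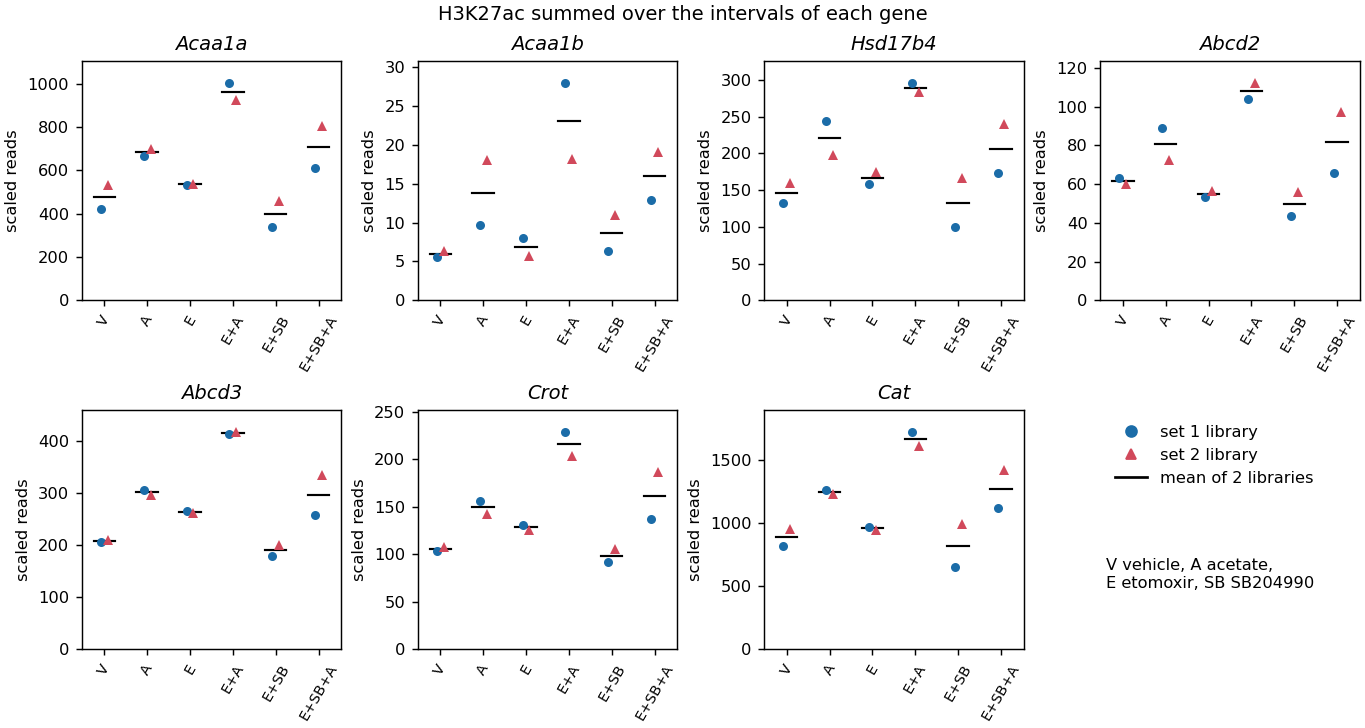
Scaled reads summed over the intervals of each member (y axis, from 0) in the 6 treatments (x axis), with circles for set 1, triangles for set 2 and a bar at the mean of the 2 libraries. For each of the 7 genes the etomoxir + acetate libraries have the highest mean, for example 415 scaled reads for Abcd3 compared with 208 with vehicle.

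In the single comparisons, the calls of the members are given beside those of all symbols. In etomoxir + acetate vs. etomoxir, 7 of 7 members were called at a limma adjusted p under 0.05, where 78.2% of all symbols were called, with a median log2 difference of 0.80 for the members and 0.79 for all symbols. In etomoxir + SB204990 + acetate vs. etomoxir + SB204990, 5 of 7 were called (57.7% of all symbols), and Abcd2 (log2 difference 0.69, limma adjusted p = 0.057) and Acaa1b (0.83, limma adjusted p = 0.23) were not. In acetate vs. vehicle, 0 of 7 were called (0% of all symbols) with limma, although 4 of 7 members and 8341 of 19458 symbols had an unadjusted p under 0.05. On the recovered reads edgeR called 0 of 7 too (0% of all symbols). Within set 1 the differences of all 7 members were 0.49 to 0.88 and within set 2 they were 0.26 to 1.38. The log2 differences of acetate vs. vehicle in both sets together ran from 0.37 for Abcd2 to 1.03 for Acaa1b (limma adjusted p = 0.10 to 0.30), with a median of 0.53, compared with 0.48 for all symbols. For the average over backgrounds, the 7 of 7 called stand beside 88.2% of all symbols.

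The counts of single comparisons rested on single libraries. Without the etomoxir + SB204990 library of set 2, which enters acetate vs. vehicle only through the shared estimate of the spread, 6 of 7 members were called in acetate vs. vehicle (61.2% of all symbols), and 5 of 7 without that of set 1 (61.1%). With only the acetate and vehicle libraries in the fit, 5 of 7 were called (61.5%), with the sets as a block 2 of 7 (20%), and with intervals within 5 kb of the start alone 2 of 6 (10.8%). In etomoxir + acetate vs. etomoxir, 2 of 7 were called without the etomoxir library of set 1 (52.3% of all symbols) or without the etomoxir + acetate library of set 1 (28.8%), and 3 of 7 without the etomoxir library of set 2 (37.9%). In etomoxir + SB204990 + acetate vs. etomoxir + SB204990, 1 of 7 was called without the etomoxir + SB204990 library of set 1 (23.3% of all symbols) and 0 of 7 without the etomoxir + SB204990 + acetate library of set 2 (0%). With only its own 4 libraries fitted, 0 of 7 members and 0% of all symbols were called there. The average acetate effect kept 7 of 7 calls without any 1 of the 12 libraries, where 81.2% to 98.5% of all symbols were called, and without the library that stood apart it ran from 0.63 for Abcd3 to 1.27 for Acaa1b.

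Of the 35 member intervals, 18 had a mean of at least 10 scaled reads and were tested, and the others were too weak. With acetate averaged over backgrounds 18 of 18 were called by limma (77.2% of all 63903 intervals tested). 17 of 18 were called in etomoxir + acetate vs. etomoxir (56.4% of all intervals) and 7 of 18 in etomoxir + SB204990 + acetate vs. etomoxir + SB204990 (27.4% of all intervals). Those 7 were the start intervals of Abcd3 and Crot, the Acaa1a interval, the largest Hsd17b4 interval in Tnfaip8, 1 interval inside Cat and 2 in Abtb2. In acetate vs. vehicle 0 of 18 were called (0.0955% of all intervals), and 6 of 18 had an unadjusted p under 0.05, as did 16905 of all 63903. Within Cat the average acetate difference ran from 0.54 at its start to 0.94 at an intergenic interval (chr2:103553700-103555683), and the standard errors of 0.11 to 0.32 across the Cat intervals were too large to order them.

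The acetate differences of the members were then set against the level of the whole table. When the libraries were scaled so that the median interval was level (median-of-ratios), the average acetate difference was 0.09 for Acaa1a, 0.57 for Acaa1b, 0.04 for Hsd17b4 and Abcd2, 0.01 for Crot and Cat, and -0.04 for Abcd3. None of the 7 was then called (limma adjusted p from 0.92 to 1.00), 1 of 7 had an unadjusted p under 0.05 (5.25% of all symbols), and 0 of 19458 symbols were called. Scaling to the same total, and multiplying each share of reads by its factor, also left 0 of 7 called for this average (0.216% and 0% of all symbols). The members ran from -0.02 for Abcd3 to 0.58 for Acaa1b after the first of these, while each share times its factor kept differences of 0.40 for Abcd3 to 0.96 for Acaa1b, with larger standard errors of 0.29 to 0.55 (limma adjusted p = 0.40 for each).

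The share of a library's scaled reads that fell on each member describes the same without any test. Cat took between 119.7 and 138.2 ppm (parts in 1000000) of the scaled reads of a library, a ratio of highest to lowest of 1.15. That ratio was 1.19 for Acaa1a, 1.22 for Crot, 1.23 for Abcd3, 1.31 for Hsd17b4 and 1.39 for Abcd2, all under the median of 1.43 over all symbols tested, and it was 2.81 for Acaa1b. Counting error widens this ratio for genes with few reads, and Acaa1b had 8 to 28 reads per library. After median-of-ratios scaling, the Pearson correlations over the 12 libraries of the 15 pairs among the 6 members other than Acaa1b ran from 0.66 (Hsd17b4 and Abcd3) to 0.95 (Abcd3 and Crot), and those of the 6 pairs with Acaa1b from -0.33 to 0.01. The sums of a pair share each library's depth and background, and no value for pairs of other genes is given here for comparison.

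**Figure D3:**
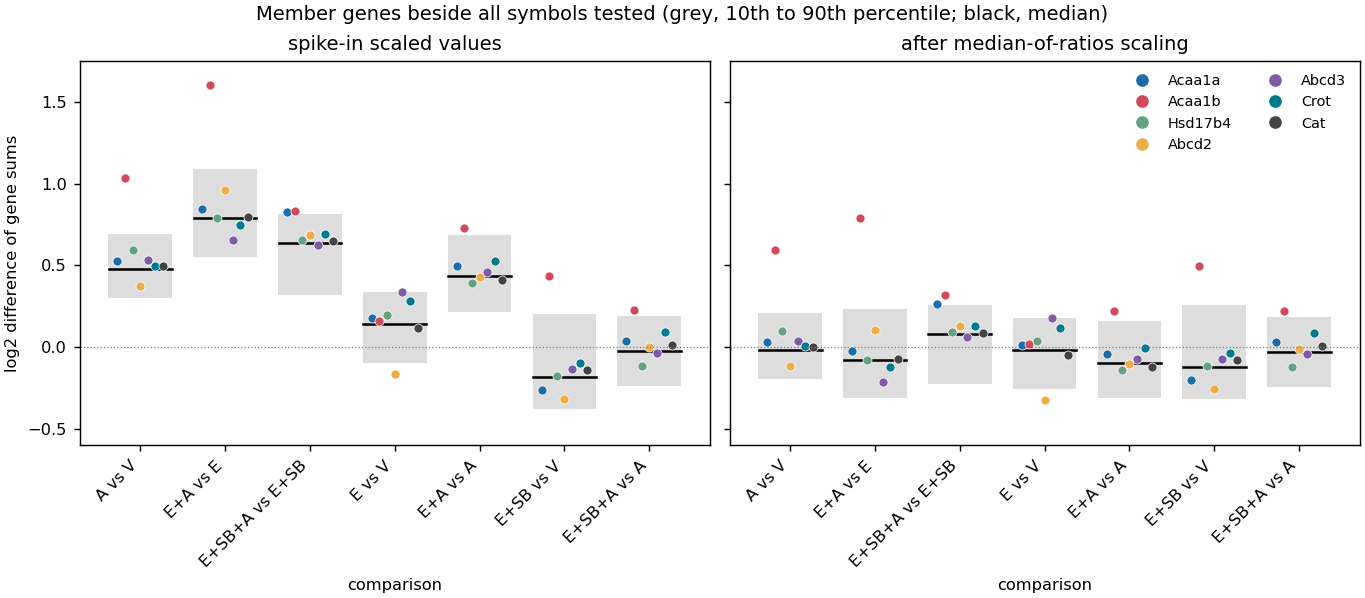
Log2 differences of gene sums (y axis) in 7 comparisons (x axis) for the 7 members (colored points), on spike-in scaled values (left) and after median-of-ratios scaling (right), with the 10th to 90th percentile of all 19458 symbols tested in grey and their median in black. On the left the median of the members sits near that of all symbols in the acetate comparisons, for example 0.53 and 0.48 in acetate vs. vehicle, where Acaa1b is at 1.03. On the right the members lie around 0, with Acaa1b above the rest in 6 of the 7 comparisons shown.

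To see whether a block of mitochondrial fatty acid entry moved the mark at the peroxisomal genes, the treatments with etomoxir were compared with those without. None of the members was called in any of these comparisons, as detailed for each. In etomoxir vs. vehicle the log2 differences were 0.34 for Abcd3, 0.28 for Crot, 0.20 for Hsd17b4, 0.18 for Acaa1a, 0.16 for Acaa1b, 0.12 for Cat and -0.16 for Abcd2 (limma adjusted p = 0.99 for each). The members' median of 0.18 compared with 0.14 for all symbols. Abcd3 was higher in both sets (0.36 and 0.32), and Abcd2 was lower in both (-0.24 and -0.09). The standard errors of their differences over both sets were 0.21 for Abcd3 and 0.31 for Abcd2.

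0 of 7 members were called by limma in etomoxir vs. vehicle (0.0154% of all symbols), and 0 had an unadjusted p under 0.05 (0.684% of all symbols). The same count of 0 held for etomoxir + SB204990 vs. vehicle (0.00514%, or 5.61% and 12.3% without its etomoxir + SB204990 library of set 1 or of set 2, with 0 of 7 members), etomoxir + acetate vs. acetate (0.0771%) and etomoxir + SB204990 + acetate vs. acetate (0.0514%). In etomoxir + acetate vs. acetate 4 of 7 had an unadjusted p under 0.05, as did 32.6% of all symbols, with log2 differences of 0.41 to 0.53, and 5 of 7 were called when only its own libraries were fitted (73.1% of all symbols). Without the etomoxir + SB204990 library of set 1 or of set 2, 4 of 7 were called (43.1% and 43.5% of all symbols). These libraries are not part of that comparison and enter through the shared spread. edgeR on the recovered reads called 0 of 7 members as gene sums in each of these 4 comparisons, where it called 0.0103%, 0.00514%, 0.0668% and 0.0463% of all symbols in the same order. Etomoxir + SB204990 vs. vehicle was lower for Acaa1a, with 338 and 461 scaled reads compared with 422 and 532, in both sets (-0.32 and -0.21), but it was not called, and the log2 difference over both was -0.26 (SE 0.20, limma adjusted p = 0.78).

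Averaged over the 4 comparisons with and without etomoxir, the log2 difference was 0.11 for Acaa1a (95% interval -0.14 to 0.37), 0.39 for Acaa1b (-0.38 to 1.16), 0.07 for Hsd17b4 (-0.25 to 0.40), -0.01 for Abcd2 (-0.40 to 0.37), 0.16 for Abcd3 (-0.11 to 0.42), 0.20 for Crot (-0.11 to 0.51) and 0.10 for Cat (-0.15 to 0.35). None of the 7 passed in the fit of all 12 libraries (limma adjusted p = 0.99 to 1.00), where 0.211% of all symbols were called. Of the members, 0 had an unadjusted p under 0.05 (2.66% of all symbols). None of the 18 intervals was called either (0.233% of all intervals). For the 6 members other than Acaa1b the upper bound of the fold was between 1.27 and 1.43, so a rise of that average beyond this size lay outside these intervals. The average holds 2 comparisons in which SB204990 was given too, and where etomoxir alone was added the upper bounds were larger, at 1.38 to 1.73 in etomoxir vs. vehicle and 1.76 to 2.09 in etomoxir + acetate vs. acetate. For Acaa1b the upper bound of the average was 2.23-fold. Without the etomoxir + SB204990 library that stood apart, the average was between -0.06 for Abcd2 and 0.30 for Acaa1b, and it turned for Hsd17b4, from 0.07 to -0.02.

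SB204990 was always given together with etomoxir, and the members were compared with and without it. In etomoxir + SB204990 vs. etomoxir the log2 differences were -0.47 for Abcd3, -0.44 for Acaa1a, -0.38 for Crot, -0.37 for Hsd17b4, -0.25 for Cat, -0.15 for Abcd2 and 0.27 for Acaa1b, and 0 of 7 were called by limma (0% of all symbols). 2 of 7 had an unadjusted p under 0.05 (21% of all symbols), edgeR called 0, and 4 of 7 were called without the etomoxir + SB204990 library of set 2 (63.8% of all symbols). By edgeR 0% of all symbols were called in this comparison. The median over all symbols was -0.33, compared with -0.37 for the members. In the presence of acetate, the same addition gave -0.40 for Cat to -0.51 for Hsd17b4, with a median of -0.46 for both the members and all symbols, and 0 of 7 called (0.00514% of all symbols). By edgeR the share of all symbols called was 0.00514% as well. Here too 2 of 7 had an unadjusted p under 0.05 (38.7% of all symbols) and edgeR called 0, but 4 of 7 were called without the etomoxir + SB204990 library of set 1 or of set 2 (55.2% and 55.6% of all symbols) and 2 of 7 without the etomoxir + SB204990 + acetate library of set 2 (36.4%).

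Whether the acetate response of the members differed with the inhibitors was tested as an interaction. With etomoxir the acetate difference of Abcd2 was larger by 0.59 (SE 0.44) and that of Abcd3 by 0.12 (SE 0.30), and limma called 0 of 7 members (0% of all symbols) at adjusted p of 0.77 to 0.83. With etomoxir + SB204990 it was larger by 0.30 for Acaa1a (SE 0.29) and smaller by a log2 value of -0.20 for Acaa1b (SE 0.86), and 0 of 7 were called (0% of all symbols, limma adjusted p = 1.00). In both interactions 0 members had an unadjusted p under 0.05 (0.159% and 0.0565% of all symbols), and edgeR called 0 members and 0% of all symbols. The standard errors of 0.28 to 0.86 leave room for differences of the size of the acetate effect itself.

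The other genes of the pathway were taken from lists that were chosen with results of these data known. Of 31 other genes of peroxisomal oxidation, 23 had an interval and 20 were tested. With acetate averaged over backgrounds, 19 of 20 were called (88.2% of all symbols) and all were higher, with a median log2 difference of 0.64. With etomoxir averaged, 1 of 20 was called (0.211% of all symbols). This was Mlycd, which encodes malonyl-CoA decarboxylase and so removes the natural inhibitor of carnitine palmitoyltransferase, at 0.78 (limma adjusted p = 0.022), with 64.0 and 75.3 scaled reads with vehicle and 123 and 117 with etomoxir. After median-of-ratios scaling Mlycd was at 0.63 (limma adjusted p = 0.30). Its call was lost in 9 of the 12 refits that leave out 1 library, all but those without an etomoxir + SB204990 library or the vehicle library of set 2, and its log2 difference ran from 0.68 to 0.89. Without the etomoxir + SB204990 library of set 1, 3 of 20 were called (6.04% of all symbols).

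Of the 15 peroxins, the import and assembly factors of the organelle, 14 had an interval and 13 were tested. With acetate averaged, 13 of 13 were called and higher (median 0.64, beside 88.2% of all symbols called), and with etomoxir averaged 0 of 13 (median 0.09). Of 11 other antioxidant enzymes set beside Cat, 8 were tested, 8 were called with acetate (median 0.64) and 0 with etomoxir (median 0.11). Cat itself was at 0.65 and 0.10 in the same averages. After median-of-ratios scaling, 0 genes of these lists were called with acetate averaged.

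The PPAR targets outside the peroxisome gave other values with etomoxir. Of 26 genes 19 were tested and 7 were called higher in the average over the 4 etomoxir comparisons (0.211% of all symbols were called), with a list median of 0.45, compared with 0.11 for the peroxisomal members and 0.10 for all symbols. Pdk4, the kinase that shuts the pyruvate dehydrogenase complex, had 710.5 and 937 scaled reads with vehicle and 2204 and 2301 with etomoxir, and its average difference was 1.41 (limma adjusted p = 9.1e-08). Acot2 (1.16) and Acot1 (1.15), acyl-CoA thioesterases of mitochondria and cytoplasm, and Ucp3 (1.15), a mitochondrial carrier of the uncoupling protein family, were also called.

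Acot1 and Acot2 are near-identical neighbours, so their reads may be split. Without 1 library at a time 5 to 12 of the 19 were called, the 12 without the etomoxir + SB204990 library of set 1, where 6.04% of all symbols were called, and Pdk4, Ucp3 and Acot2 were called in each of the 12 refits and Acot1 in 8. After median-of-ratios scaling 5 of the 19 were called (0.108% of all symbols), with a list median of 0.29 compared with -0.06 for all symbols. In etomoxir vs. vehicle alone 2 of 19 were called, Pdk4 (1.46, limma adjusted p = 8.3e-04) and Ucp3 (1.18, limma adjusted p = 0.049), where 0.0154% of all symbols were called. After median-of-ratios scaling 0 of 19 were called in that comparison (limma adjusted p = 0.26 for both genes). Pdk4 kept its call there without any 1 library, Ucp3 lost it in 8 of 12 refits, and 7 of 19 were called without the etomoxir + SB204990 library of set 1 or of set 2 (0.206% and 0.2% of all symbols). The difference between the lists was not tested, and the comparisons of the average share the vehicle and acetate libraries.

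**Figure D4:**
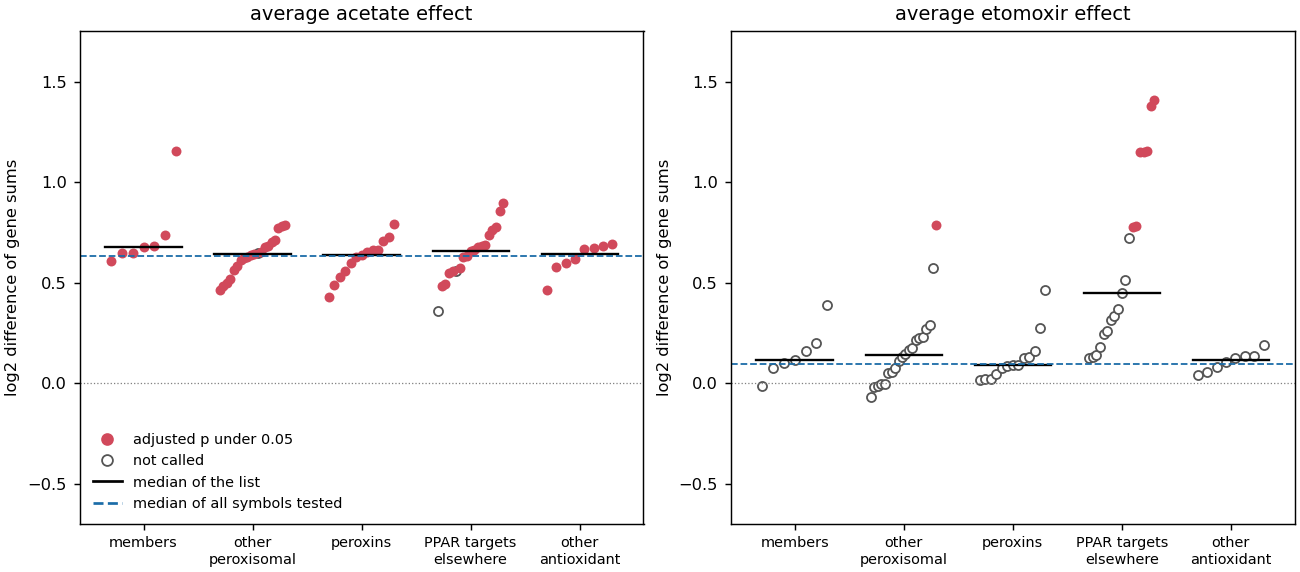
Log2 differences of gene sums (y axis) for the members and 4 other gene lists (x axis) in the average acetate effect (left) and the average etomoxir effect (right), with 1 point per gene, filled in red at a limma adjusted p under 0.05, a black bar at the median of each list and a dashed line at the median of all symbols tested. On the left the list medians lie between 0.64 and 0.68, and on the right that of the PPAR targets outside the peroxisome is 0.45 and those of the other lists are between 0.09 and 0.14.

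The members without an interval of their own were followed by position. Pex11a is a gene of 7175 bp on the minus strand (chr7:79735957-79743131), and its start lies inside an interval that the table assigns to Wdr93 (chr7:79742001-79743886). This interval had 24.3 and 25.4 scaled reads with vehicle, 36.2 and 26.7 with acetate, 26.3 and 24.6 with etomoxir, 43.0 and 59.5 with etomoxir + acetate, 23.1 and 27 with etomoxir + SB204990, and 28.5 and 37.3 with acetate added. Both acetate libraries lay above their counterparts in each background, and how many of all intervals did so was not counted. The average acetate difference was 0.55 (SE 0.23, limma adjusted p = 0.024), or -0.08 after median-of-ratios scaling. The average etomoxir difference was 0.20 (SE 0.24, limma adjusted p = 0.98).

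Ehhadh, the bifunctional enzyme whose induction is a classical sign of PPARα activity in rodent liver, had no interval touching the gene (chr16:21761287-21787807, minus strand). The nearest one began 5526 bp upstream of its start (chr16:21793333-21795573) and carried the symbol 1300002E11Rik. It had 65.4 and 59.4 scaled reads with vehicle, 74.9 and 61.2 with acetate, 59.4 and 63.0 with etomoxir, 124 and 98.9 with etomoxir + acetate, 41.0 and 38 with etomoxir + SB204990, and 67.9 and 91.1 with acetate added. Within each set it was higher with acetate than with vehicle, while with etomoxir it was lower than with vehicle in set 1 and higher in set 2, and the etomoxir + acetate library was the highest of its set. Its average acetate difference was 0.65 (SE 0.17, limma adjusted p = 5.2e-04), or 0.01 after median-of-ratios scaling, and its average etomoxir difference was 0.06 (SE 0.18, limma adjusted p = 0.99). Both intervals were chosen after it was seen that the symbols had none.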

How the data were processed

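H3K27ac ChIP-seq libraries of 4T1 cells (paired-end reads, no input library used here) were analysed from 1 table of 126464 mm10 intervals. Per the study's methods, the authors ran nf-core/chipseq on a merged GRCh38 and mm10 genome and set a factor for each library from the percentage of human reads, divided by the highest factor. The deposited signal values are reads in the interval times that factor. In 1 library of each suffix set the factor was 1 and the deposited values are counts, so factors may be comparable only inside a set. In the others 100% of the values lay within 0.01 steps of a whole multiple of 1 step, which gave back the reads. How intervals were called is not given in the sources used here. A wrong factor would move every gene of its library by the same ratio, and the factor leaves sequencing depth in the values. An interval carries the symbol of the authors' annotation, which need not be its nearest gene or the gene it regulates.

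The values were summed per symbol and tested with limma 3.58.1 (R 4.3.3, intensity trend) on log2(value + 1), in 1 fit of 6 group means over 12 libraries, for 19458 symbols and 63903 intervals whose mean was 10 or more, with Benjamini-Hochberg adjustment within each comparison over all of them. The pseudocount of 1 understates changes of low values. The script was tested on simulated data. The average acetate effect is the mean of 3 differences and the average etomoxir effect the mean of 4. edgeR 4.0.16 (quasi-likelihood, with the factors as offsets) was an alternative. Genes and starts came from GENCODE vM21 and promoters from RefSeq. The suffix sets were checked as pairs: of 15 pairs of treatments, the correlation of the set 1 deviations was over 0.1 in 4 (-0.22 to 0.60). The meaning of the suffix is not given in the sources used here, and a block for the sets stayed an alternative.

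The members and lists were chosen with earlier results of these data known. All 9 members are named, and of each other list at most 5 genes per comparison, by absolute log2 difference among those called with the same sign in both sets. Not every gene under this rule is reported here. A planned list of genes most like Ehhadh could not be made, since Ehhadh had no interval.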

Additional observations from a re-analysis of the deposited data

How the results depend on the processing

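Of the results over members and comparisons, 254 of the counts of called members kept their size in alternatives other than leaving out a library, and 32 moved. Under median-of-ratios scaling, total-sum scaling, each share of reads times its factor and the replicate block with median-of-ratios scaling, 0 members were called in the average acetate effect and in the acetate comparisons with either inhibitor treatment, as gene sums, and for the first 3 scalings 0 as single intervals. Median-of-ratios and total-sum scaling remove by construction the shift shared by all intervals. For acetate vs. vehicle, 2 were called with the replicate block, 2 of 6 with intervals within 5 kb of the start and 5 when only the libraries compared were fitted. With only those libraries, 0 were called in etomoxir + SB204990 + acetate vs. etomoxir + SB204990 and 5 in etomoxir + acetate vs. acetate. Among single intervals with a mean of at least 50, 3 of 10 were called in acetate vs. vehicle (25.6% of all intervals so filtered), 10 of 10 in etomoxir + acetate vs. etomoxir (92.3%), 9 of 10 in etomoxir + SB204990 + acetate vs. etomoxir + SB204990 (79.8%) and 10 of 10 in the average acetate effect (99.1%). Without an intensity trend 9 of 18 intervals were called in etomoxir + acetate vs. etomoxir (35.9% of all), but for etomoxir + SB204990 + acetate vs. etomoxir + SB204990 there were 0 (0% of all), and without a filter 3 of 35 (8.8% of all). The cause of the other shifts was not tested. The replicate block, for which the labels give only a shared suffix, changed no other count of called members by over 1.5 times. Over all symbols it moved the calls from 3 to 17 in etomoxir vs. vehicle, from 1 to 18 in etomoxir + SB204990 vs. vehicle, from 15 to 61 in etomoxir + acetate vs. acetate, from 0 to 238 in etomoxir + SB204990 vs. etomoxir, and from 41 to 64 in the average etomoxir effect.

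Leaving out 1 library at a time, the members called ranged from 0 to 6 in acetate vs. vehicle (0% to 61.2% of all symbols), 2 to 7 in etomoxir + acetate vs. etomoxir (28.8% to 92.2%), 0 to 7 in etomoxir + SB204990 + acetate vs. etomoxir + SB204990 (0% to 91.4%, the highest without the etomoxir + SB204990 library of set 2), while they ranged from 0 to 4 in etomoxir + acetate vs. acetate (0.0103% to 43.5%), etomoxir + SB204990 vs. etomoxir (0% to 63.8%) and etomoxir + SB204990 + acetate vs. etomoxir + acetate (0% to 55.6%).

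Some log2 differences changed sign. The average acetate effect of Abcd3, called at 0.61 on the spike-in scale, was not called and was -0.037 with median-of-ratios scaling, with or without the replicate block, and -0.019 with total-sum scaling. The average etomoxir effect under median-of-ratios scaling, with or without the replicate block, was -0.048 for Acaa1a, -0.085 for Hsd17b4, -0.0020 for Abcd3 and -0.059 for Cat, and that of Abcd2 was 0.029 with each share of reads times its factor. Etomoxir vs. vehicle under that share was -0.045 for Acaa1a, -0.037 for Acaa1b, -0.024 for Hsd17b4 and -0.11 for Cat, and Cat was at -0.045 with median-of-ratios scaling, with or without the replicate block, and -0.016 with total-sum scaling. Leaving out 1 library at a time, the average etomoxir effect ran from -0.086 to 0.059 for Abcd2 and from -0.017 to 0.17 for Hsd17b4, and etomoxir vs. vehicle from -0.050 to 0.37 for Acaa1b. The differences with etomoxir in this paragraph were called on neither scale.

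Depth limits Acaa1b most, with 8 to 28 reads per library, and 17 of the 35 intervals were too weak to test. With 2 libraries per treatment, intervals of a difference are wide.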
